A study of Mus musculus with 114 samples.

Results

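Nr4a1, Nr4a2 and Nr4a3 are the 3 genes of the NR4A family of orphan nuclear receptors. They were taken by symbol from a deposited table of read counts with 13101 genes, and all 3 were present and passed the filter on low counts in each fit. The libraries hold RNA bound to tagged ribosomes from mouse prefrontal cortex, collected at ZT2, ZT6, ZT10, ZT14, ZT18 and ZT22 (ZT, zeitgeber time, hours after lights on). The mice carry RiboTag, a haemagglutinin tag on a ribosomal protein that is switched on in 1 chosen cell type, so that an antibody against the tag pulls down the ribosomes of those cells and their RNA. The study names parvalbumin (PV) interneurons, a class of fast-spiking inhibitory neurons, and pyramidal neurons, the excitatory cells of the cortex.

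The 55 libraries whose title starts with PV (28 from females, 27 from males) are called PV-titled, and the 58 whose title starts with C (29 from females, 29 from males) are called C-titled. Each prefix has 8 to 10 libraries at each time. All have the genotype entry "Ribo-tag mice" and none a treatment. The labels give neither the line that drives the tag nor the age, and do not say whether each library is a separate animal, so p-values measure the spread between these libraries only. The cell type entry of every library names the opposite cell type to its title, so the prefix was checked against marker genes. The summed level of 10 PV interneuron markers ran from 294.01 to 1069 CPM (counts scaled to a common library total, with TMM) in PV-titled libraries and from 82.9 to 173.6 CPM in C-titled ones. The sum of 10 pyramidal markers ran from 1611 to 4093 CPM in PV-titled libraries and from 4295 to 8257 CPM in C-titled ones. The markers therefore follow the title. Pyramidal markers are present in PV-titled libraries, and markers of endothelial and mural cells (8 of 8), microglia (9 of 9), oligodendrocytes (6 of 6) and astrocytes (8 of 8) were all higher there than in C-titled ones. Of all genes, 44.3% were called higher in PV-titled libraries in the comparison of levels below. Gene totals ran from 19.1 to 39.5 M counts (M, mega) in PV-titled libraries and from 24.6 to 44.1 M in C-titled ones. 3 PV-titled (at ZT10, ZT14 and ZT22) and 5 C-titled libraries (2 at ZT2, 3 at ZT6) correlate less than the rest with their own prefix and are said to stand apart, and list counts and whole-table counts that change without them are given here or in the closing section.

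NR4A receptors are transcription factors that bind DNA without a known classical ligand, as monomers at an element called NBRE, as dimers, or, for Nr4a1 and Nr4a2, together with a retinoid X receptor. In neurons they are immediate early genes: calcium and cyclic AMP signals act through the kinase-regulated factor CREB and its coactivators, the CRTC proteins, to switch them on within a short time and without new protein synthesis. Nr4a1 (also called Nur77) is widely induced by activity in the forebrain, Nr4a2 (Nurr1) is needed for midbrain dopamine neurons and marks deep-layer and claustrum neurons in the cortex, and Nr4a3 (Nor1) is a further activity-induced member.

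On GRCm38 with the GENCODE vM21 annotation, Nr4a1 lies on chr15:101254269-101274795 (plus strand), Nr4a2 on chr2:57106830-57124003 (minus strand) and Nr4a3 on chr4:48045153-48086447 (plus strand). No other annotated gene overlaps any of them. The stretches upstream of the RefSeq starts are printed because CREB is the known inducer of the family. They are from RefSeq, build GRCm38.p6, 5′ to 3′ on the strand of the gene, with capitals for TGACG or its complement CGTCA, the core of the cyclic AMP response element (CRE).
Nr4a1: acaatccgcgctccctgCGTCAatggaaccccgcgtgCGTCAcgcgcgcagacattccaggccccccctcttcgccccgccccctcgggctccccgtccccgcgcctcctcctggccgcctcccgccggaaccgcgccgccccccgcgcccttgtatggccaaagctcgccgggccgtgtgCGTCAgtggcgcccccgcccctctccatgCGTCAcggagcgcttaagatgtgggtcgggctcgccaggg
Nr4a2: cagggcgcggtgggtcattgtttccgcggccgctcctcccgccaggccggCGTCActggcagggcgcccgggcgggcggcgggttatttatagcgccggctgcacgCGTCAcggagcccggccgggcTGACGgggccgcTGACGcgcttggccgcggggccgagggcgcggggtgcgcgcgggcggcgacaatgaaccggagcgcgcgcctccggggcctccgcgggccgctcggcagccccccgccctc
Nr4a3: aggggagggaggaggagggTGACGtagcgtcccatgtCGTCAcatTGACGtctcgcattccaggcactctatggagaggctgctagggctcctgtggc

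The Nr4a1 stretch is chr15:101266596-101266845 (250 bases) and the Nr4a2 stretch chr2:57124004-57124253 (250 bases). The Nr4a3 stretch is chr4:48045055-48045152 (98 bases), since the next base toward its RefSeq start lies inside an annotated exon, and the rest is not shown. Counted on both strands in the 300-base window from 250 bases before to 50 bases after the start, each of the 3 genes has 4 matches to the CRE core, the fourth of Nr4a3 lying in the part not shown. Among 32851 RefSeq windows of the same length, 20.8% hold the core at least 1 time and 0.231% hold it 4 or more times. In Nr4a1 the pair nearest the start begins 69 and 40 bases before it. The full palindrome TGACGTCA (in 1.79% of windows), the NBRE AAAGGTCA (1.51%), the E-box CACGTG (7.15%) and the CArG box of serum response factor (1.63%) have no match in the 3 windows, and a TATAAA (13.6%) is found in Nr4a2 alone. The full palindrome contains the core on both strands, and none of the other motifs contains the core. These are matches of letters and were not measured as binding sites.

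Per length of annotated exons, Nr4a1 was the most abundant of the 3 in all 55 PV-titled and all 58 C-titled libraries. Its median was 25.9 CPM per kb in PV-titled libraries and 35.5 CPM per kb in C-titled ones. Nr4a2 had a median of 1.87 CPM per kb in PV-titled libraries and 1.88 CPM per kb in C-titled ones. Nr4a3 had a median of 1.076 CPM per kb in PV-titled libraries and 1.92 CPM per kb in C-titled ones. The 2 low genes had a clearer order in PV-titled libraries: Nr4a3 lay above Nr4a2 in 8 of 55 PV-titled libraries and in 29 of 58 C-titled libraries, with a median ratio of Nr4a3 to Nr4a2 of 0.623 in PV-titled libraries and 0.983 in C-titled ones. Within a library, the median ratio of Nr4a1 to Nr4a2 on this scale was 14.035 in PV-titled libraries and 22.9 in C-titled ones, and that of Nr4a1 to Nr4a3 was 24.6 in PV-titled libraries and 20.6 in C-titled ones.

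Nr4a1 and Nr4a3 were lower in PV-titled libraries than in C-titled ones, and Nr4a2 was not distinguishable between them. Nr4a1 had 36.5, 90.9 and 211.05 CPM (lowest, median and highest) in PV-titled libraries and 36.8, 124 and 314.6 CPM in C-titled libraries, with means of 97.0 ± 40.9 CPM (SD, n = 55) and 140.1 ± 69.1 CPM (SD, n = 58). The ranges overlap, but 42 of 55 PV-titled libraries lie under the C-titled median and 9 C-titled libraries lie above the highest PV-titled one. In edgeR's quasi-likelihood fit over both prefixes, with time, sex and library-number range as terms, the difference was -0.54 in log2 (SE 0.11, 95% interval -0.76 to -0.33), a level 1.46-fold lower in PV-titled libraries (adjusted p = 3.51e-06).

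Nr4a3 showed the larger difference. It had 0.790, 6.44 and 15.5 CPM (lowest, median and highest) in PV-titled libraries and 2.63, 11.5 and 49.2 CPM in C-titled libraries, with means of 6.58 ± 3.19 CPM (SD, n = 55) and 12.2 ± 7.53 CPM (SD, n = 58). The ranges overlap, with 51 of 55 PV-titled libraries under the C-titled median, 15 C-titled libraries above the highest PV-titled one and 5 PV-titled libraries under the lowest C-titled one. The difference was -0.91 in log2 (SE 0.14, 95% interval -1.18 to -0.64), a level 1.88-fold lower in PV-titled libraries (edgeR adjusted p = 1.27e-09). The 2 highest C-titled values at ZT2 and ZT6, 49.2 and 29.7 CPM, come from libraries that stand apart, and without all such libraries the difference was -0.83.

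Nr4a2 had 1.301, 7.59 and 25.4 CPM (lowest, median and highest) in PV-titled libraries and 2.97, 7.64 and 16.02 CPM in C-titled libraries, with means of 8.18 ± 4.93 CPM (SD, n = 55) and 7.77 ± 3.09 CPM (SD, n = 58). The medians nearly coincide, 29 of 55 PV-titled libraries lie under the C-titled median, and both the lowest and the highest values are PV-titled. Its difference of 0.07 in log2 (SE 0.12, 95% interval -0.17 to 0.31) did not pass the test (edgeR adjusted p = 0.568), which leaves differences inside that interval undetected. Nr4a2 varied more between PV-titled libraries, with a coefficient of variation of 60.2% in PV-titled libraries and 39.7% in C-titled ones. For Nr4a1 this coefficient was 42.2% in PV-titled libraries and 49.4% in C-titled ones, and for Nr4a3 48.5% in PV-titled libraries and 61.6% in C-titled ones. These coefficients include the libraries that stand apart. Such libraries hold the highest PV-titled Nr4a2 value (25.4 CPM) and the highest C-titled Nr4a3 value (49.2 CPM). Without them the coefficient of Nr4a2 is still larger in PV-titled libraries. For Nr4a3 the order of the prefixes turns around, so that order rests on them.

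The 2 calls stand against a background in which 87.5% of the 13053 genes tested differed between the prefixes at an adjusted p under 0.05, 5783 (44.3%) higher and 5632 (43.1%) lower in PV-titled libraries. A call in this comparison is therefore the usual case, and the one member without a call is the less usual one. The size of the Nr4a1 difference exceeded that of 46.2% of all genes, that of Nr4a3 exceeded 69.2%, and that of Nr4a2 exceeded 6.41%. The titles also carry a library number, in 2 ranges. In the first range alone the log2 difference was -0.69 for Nr4a1, 0.00063 for Nr4a2 and -0.83 for Nr4a3, and in the second range alone -0.37, 0.09 and -0.99, with Nr4a1 and Nr4a3 called in both. Scaling by library totals without TMM moved the median of all genes to 0.21, against 0.0084 with TMM, and the split of calls to 6969 higher and 4324 lower. Under that scaling Nr4a2 was called higher in PV-titled libraries, at 0.28 (adjusted p = 0.0284, from 0.0284 to 0.998 over 17 alternatives), and Nr4a1 and Nr4a3 stayed lower, at -0.34 and -0.71. Since these are pooled cells, less RNA of a gene per cell and fewer cells that carry it cannot be told apart. The part that RNA of pyramidal cells and glia in PV-titled libraries plays in these differences was not tested.

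**Figure D1:**
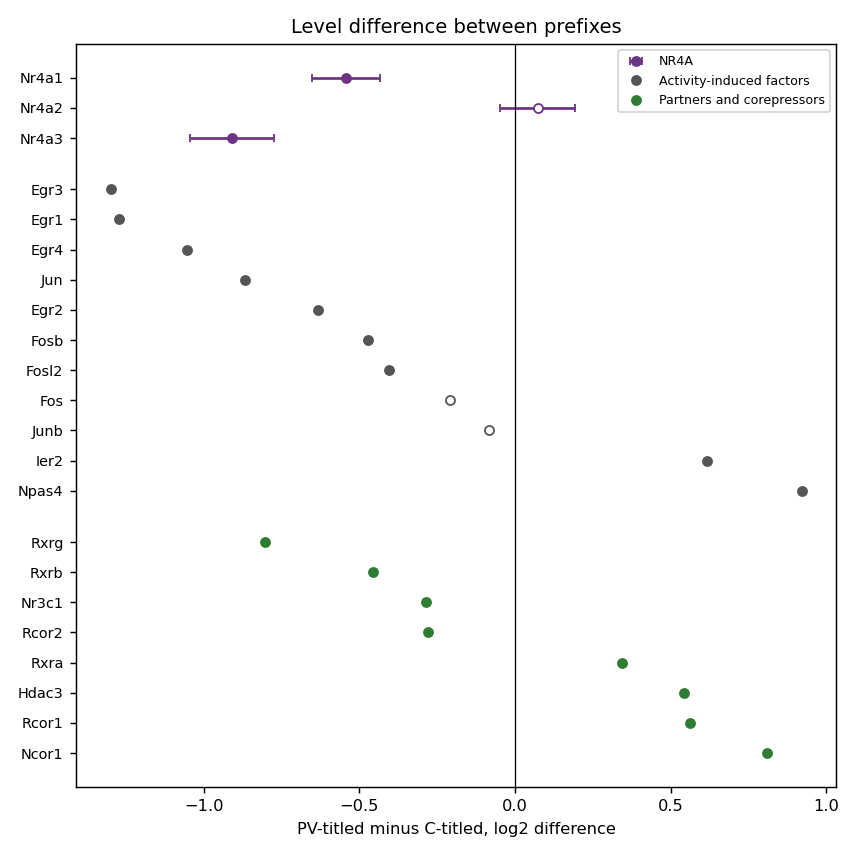
Log2 difference between PV-titled and C-titled libraries (x axis) for the NR4A genes (bars, SE), activity-induced transcription factors and NR4A partners and corepressors (rows). Filled points have an adjusted p under 0.05. Nr4a1 and Nr4a3 lie left of 0 at -0.54 and -0.91, and the open point of Nr4a2 lies at 0.07.

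Over the day, Nr4a1 was lowest at ZT6 and ZT10 and highest at ZT18 in PV-titled libraries, and lowest at ZT2 and ZT10 and highest at ZT18 in C-titled libraries. At ZT2 it had 55.4, 90.8 and 145.94 CPM (lowest, median and highest) in PV-titled libraries, against 36.8, 88.4 and 162.4 CPM in C-titled libraries. ZT6 gave 37.9, 58.6 and 123 CPM in PV-titled libraries, against 40.6, 118 and 314.6 CPM in C-titled libraries. PV-titled and C-titled libraries thus had nearly the same median at ZT2, with a ratio of 1.03, and were farthest apart at ZT6, with a ratio of 0.497. At ZT10 the values were 37.9, 69.8 and 92.0 CPM in PV-titled libraries, against 59.7, 89.6 and 168.8 CPM in C-titled libraries. At ZT14 they were 36.5, 101 and 143.85 CPM in PV-titled libraries, against 104.6, 179.2 and 291.2 CPM in C-titled libraries. From ZT10 to ZT14 the C-titled median moved from among the lowest to among the highest of its prefix, and the highest median of both prefixes was that of ZT18. ZT18 gave 73.5, 145.95 and 211.05 CPM in PV-titled libraries, against 85.3, 189.3 and 288.5 CPM in C-titled libraries. ZT22 gave 66.7, 103.7 and 183.03 CPM in PV-titled libraries, against 71.5, 149.1 and 262.6 CPM in C-titled libraries. The highest median was 2.49 times the lowest in PV-titled libraries and 2.14 times the lowest in C-titled ones, while the ranges of all times overlap within a prefix and those of the 2 prefixes overlap at every time.

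**Figure D2:**
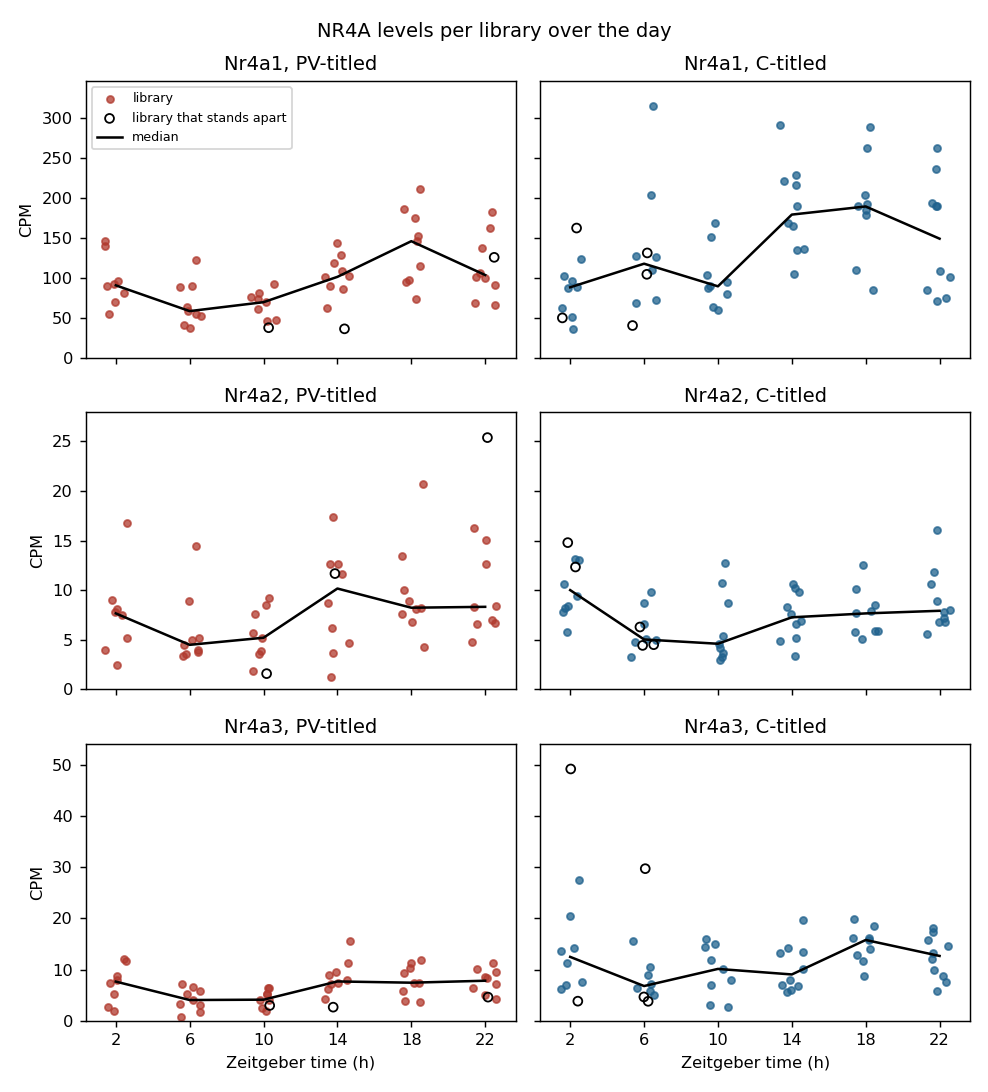
CPM (y axis) of Nr4a1, Nr4a2 and Nr4a3 in each library at 6 zeitgeber times (x axis), with PV-titled libraries left and C-titled libraries right. Lines join medians and open circles are libraries that stand apart. The Nr4a1 medians peak at ZT18, at 145.95 CPM in PV-titled libraries and 189.3 CPM in C-titled ones.

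A cosine of 24 h was fitted within each prefix, where the amplitude is the log2 distance from mean to peak. In PV-titled libraries Nr4a1 had an amplitude of 0.52 (SE 0.09), a 2.07-fold change from trough to peak, with the peak at ZT19.5 (SE 0.63 h, edgeR adjusted p = 0.000353). In C-titled libraries its amplitude was 0.46 (SE 0.12), 1.88-fold from trough to peak, with the peak at ZT16.6 (SE 1.06 h, adjusted p = 0.0115). Both passed, in a background of 3.06% of 13047 genes called in PV-titled libraries and 26.8% of 13029 genes called in C-titled ones. Peaks between ZT12 and ZT24, as the NR4A genes have them, were called in 1.79% of genes in PV-titled libraries and 11.2% in C-titled ones, and peaks between ZT0 and ZT12 in 1.27% in PV-titled libraries and 15.6% in C-titled ones. By p among all genes Nr4a1 ranked 27th in PV-titled libraries and 1668th in C-titled ones. Its amplitude exceeded that of 99.0% of genes in PV-titled libraries and 97.6% of genes in C-titled ones. Within library-number ranges, the amplitude in PV-titled libraries was 0.58 at ZT19.9 in the first and 0.48 at ZT18.9 in the second, and in C-titled libraries 0.56 at ZT15.8 in the first and 0.43 at ZT17.7 in the second. None of these 4 passed on its own (adjusted p = 0.164 and 0.0596 in PV-titled, and 0.16 and 0.165 in C-titled libraries, where over all alternatives it ran from 3.52e-06 to 0.273 and from 0.00483 to 0.245). The C-titled call also ended without the libraries of title number 2 (amplitude 0.35, adjusted p = 0.132) or without those of title number 3 (0.40, 0.0787). The title number, 1 to 5, follows the prefix in each title and is not the library number.

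Nr4a2 was low at ZT6 and ZT10 in both prefixes. At ZT2 it had 2.48, 7.66 and 16.8 CPM (lowest, median and highest) in PV-titled libraries, against 5.76, 10.01 and 14.8 CPM in C-titled libraries. ZT6 gave 3.42, 4.49 and 14.4 CPM in PV-titled libraries, against 3.26, 5.03 and 9.80 CPM in C-titled libraries. Its ZT2 median in C-titled libraries, the highest of that prefix, was 8.90 CPM without the libraries that stand apart. At ZT10 the values were 1.59, 5.21 and 9.22 CPM in PV-titled libraries, against 2.97, 4.602 and 12.7 CPM in C-titled libraries. At ZT14 they were 1.301, 10.2 and 17.3 CPM in PV-titled libraries, against 3.39, 7.27 and 10.6 CPM in C-titled libraries. ZT14 had both the lowest value and the highest median of PV-titled libraries. ZT18 gave 4.26, 8.23 and 20.7 CPM in PV-titled libraries, against 5.13, 7.66 and 12.6 CPM in C-titled libraries. ZT22 gave 4.80, 8.32 and 25.4 CPM in PV-titled libraries, against 5.57, 7.93 and 16.02 CPM in C-titled libraries. The PV-titled median was above the C-titled one from ZT10 to ZT22 and below it at ZT2 and ZT6, and all ranges overlap.

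The fitted Nr4a2 rhythm passed in C-titled libraries and missed the threshold in PV-titled ones, and that difference in outcome is no test between them. Its amplitude in PV-titled libraries was 0.55 (SE 0.15) with a peak at ZT20.2 (SE 1.02 h, edgeR adjusted p = 0.0563). In C-titled libraries the amplitude was 0.36 (SE 0.09) with a peak at ZT22.1 (SE 0.93 h, adjusted p = 0.00809). The larger amplitude thus had the larger error, and with DESeq2 the PV-titled rhythm passed too (adjusted p = 0.0224, from 0.0224 to 0.792 over 17 alternatives). Within library-number ranges the amplitude was 0.69 in the first and 0.47 in the second for PV-titled libraries, and 0.23 in the first and 0.54 in the second for C-titled libraries. Of these 4, the second range of C-titled libraries alone passed (adjusted p = 0.018, from 0.00323 to 0.446 over 17 alternatives). The C-titled call ended without the libraries of title number 3 (amplitude 0.30, adjusted p = 0.0832) or without those of title number 5 (0.30, 0.0598).

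Nr4a3 had its lowest median at ZT6 in both prefixes. At ZT2 it had 1.90, 7.66 and 12.1 CPM (lowest, median and highest) in PV-titled libraries, against 3.83, 12.5 and 49.2 CPM in C-titled libraries. ZT6 gave 0.790, 4.06 and 7.22 CPM in PV-titled libraries, against 3.81, 6.79 and 29.7 CPM in C-titled libraries. The lowest PV-titled value is 23 reads in its library, so counting error there is large. At ZT10 the values were 1.98, 4.13 and 6.47 CPM in PV-titled libraries, against 2.63, 10.1 and 15.996 CPM in C-titled libraries. At ZT14 they were 2.66, 7.69 and 15.5 CPM in PV-titled libraries, against 5.64, 9.06 and 19.7 CPM in C-titled libraries. PV-titled libraries were closest to C-titled ones at ZT14, with a ratio of medians of 0.849, and farthest at ZT10, with 0.407. ZT18 gave 3.71, 7.45 and 11.9 CPM in PV-titled libraries, against 8.84, 15.8 and 19.8 CPM in C-titled libraries. ZT22 gave 4.28, 7.83 and 11.2 CPM in PV-titled libraries, against 5.87, 12.7 and 18.1 CPM in C-titled libraries. The PV-titled median was below the C-titled one at all 6 times, with overlapping ranges at each.

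The Nr4a3 rhythm passed in neither prefix. In PV-titled libraries its amplitude was 0.49 (SE 0.14) with a peak at ZT18.9 (SE 1.003 h, edgeR adjusted p = 0.0856). In C-titled libraries it was 0.31 (SE 0.14) with a peak at ZT21.8 (SE 1.63 h, adjusted p = 0.182). With DESeq2 the PV-titled rhythm passed (adjusted p = 0.0406, from 0.0406 to 0.827 over 17 alternatives), and no alternative gave a call in C-titled libraries. Within ranges the amplitude was 0.64 in the first and 0.39 in the second for PV-titled libraries, and 0.35 in the first and 0.37 in the second for C-titled libraries, with no call. The amplitudes of Nr4a2 and Nr4a3 exceeded those of 99.2% and 98.7% of genes in PV-titled libraries, and 95.4% and 93.6% in C-titled libraries. Such a share takes no account of the error of an amplitude. By p they ranked 440th and 586th of 13047 genes in PV-titled libraries. In C-titled libraries they ranked 1429th and 6167th of 13029.

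The test of the difference in rhythm between the prefixes gave no call for any of the 3, in a background of 0.383% of 13053 genes called. For Nr4a1 the fitted peak was later in PV-titled libraries, at ZT19.5 against ZT16.6 in C-titled libraries, and the difference had an edgeR adjusted p of 0.414. For Nr4a2 the adjusted p was 0.657, and for Nr4a3 it was 0.603. The amplitudes were higher in PV-titled libraries for all 3, and amplitude alone was not tested. The tested difference joins amplitude and peak time. For Nr4a1, Nr4a2 and Nr4a3 its size was 0.37, 0.29 and 0.35 in log2. Its standard errors, from 0.16 to 0.19 in log2, leave differences of the fitted size undetected. Cell type markers were compared over the day as well: the median sum of pyramidal markers ran from 2419 CPM at ZT14 to 3356 CPM at ZT22 in PV-titled libraries and from 5939 CPM at ZT14 to 6965 CPM at ZT18 in C-titled libraries. No pyramidal or PV interneuron marker had a called rhythm in PV-titled libraries, beside 3.06% of all genes. In C-titled libraries 4 of 10 pyramidal markers and 1 of 10 PV interneuron markers had one, beside 26.8% of all genes. The part of these changes in the NR4A profiles was not tested.

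**Figure D3:**
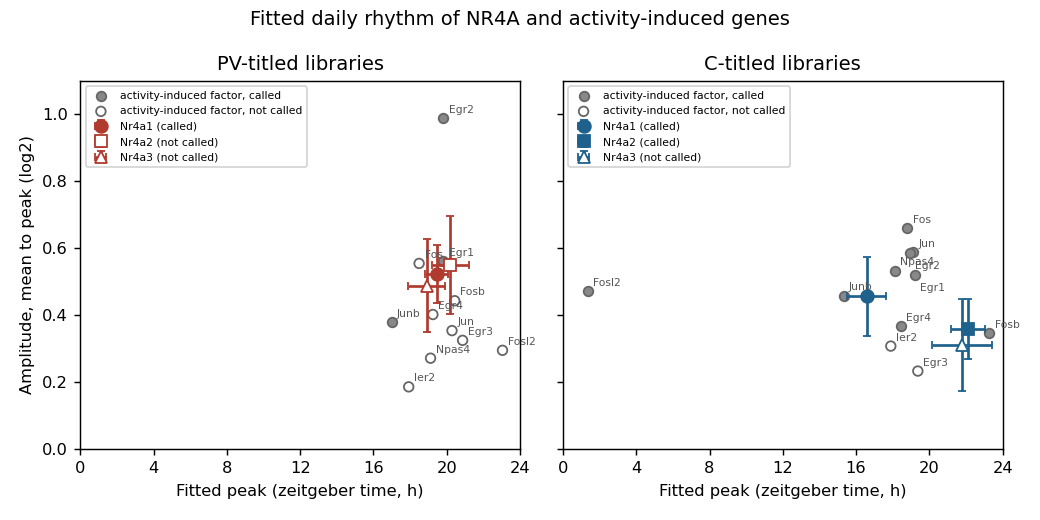
Fitted peak time (x axis, zeitgeber time) and amplitude (y axis, log2, mean to peak) of the NR4A genes (coloured, bars are SE) and of 11 activity-induced transcription factors (grey) in PV-titled libraries (left) and C-titled libraries (right). Filled symbols have an adjusted p under 0.05. The NR4A peaks lie from ZT18.9 to ZT20.2 in PV-titled libraries and from ZT16.6 to ZT22.1 in C-titled libraries.

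**Figure D4:**
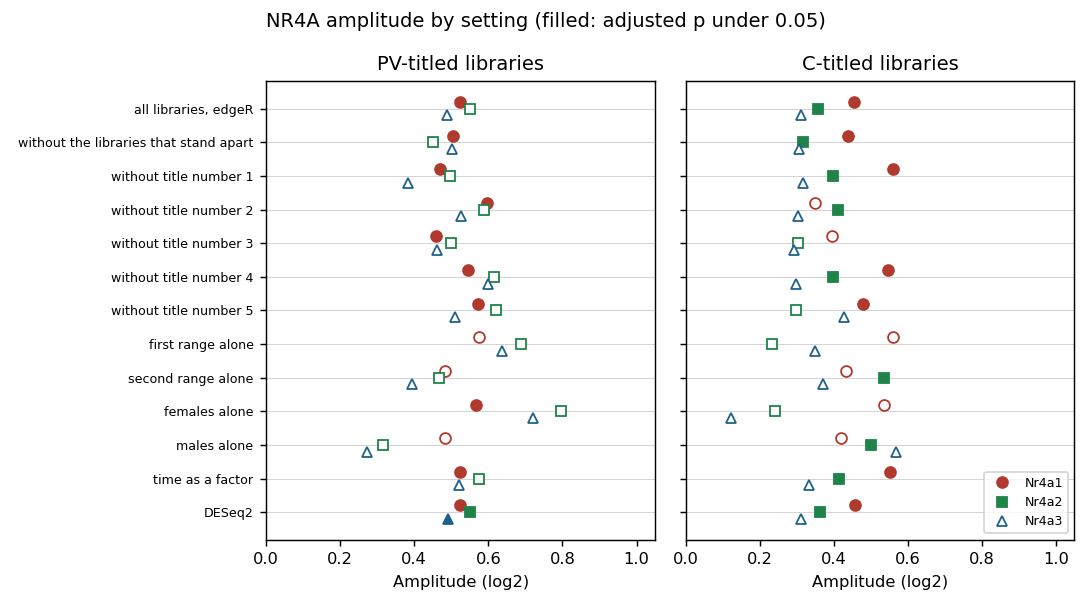
Amplitude (x axis, log2) of the 3 genes under each setting (rows) in PV-titled libraries (left) and C-titled libraries (right), with filled symbols for an adjusted p under 0.05. Nr4a1 in PV-titled libraries stays between 0.46 and 0.60 in all settings shown, and Nr4a3 in C-titled libraries is open in all of them.

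Sex was given for each library, and the test of females against males passed for no NR4A gene. Nr4a1 had 37.9, 99.1 and 185.97 CPM (lowest, median and highest) in PV-titled females, against 36.5, 88.2 and 211.05 CPM in PV-titled males. In C-titled libraries it had 36.8, 168.6 and 314.6 CPM in females, against 59.7, 104.6 and 291.2 CPM in males. Over all times the medians were higher in females in both prefixes, with wide overlap. Single times of C-titled libraries, named after their values were seen, differed from this. At ZT22 females had 189.3 to 262.6 CPM and males 71.5 to 108.9 CPM. The female median was the lower one at ZT2 (51.8 against 102.9 CPM) and at ZT14 (168.6 against 220.9 CPM). The fitted difference of Nr4a1, female minus male, was 0.25 in PV-titled libraries (SE 0.12, 95% interval 0.0072 to 0.50 before adjustment over genes, edgeR adjusted p = 0.9999). In C-titled libraries it was 0.21 (SE 0.17, 95% interval -0.14 to 0.56, adjusted p = 0.821). For Nr4a2 the difference was -0.16 in PV-titled libraries and -0.0074 in C-titled ones, and for Nr4a3 it was 0.12 in PV-titled libraries and -0.02 in C-titled ones, with adjusted p from 0.9896 to 0.9999. Over all genes 0.0307% were called in PV-titled libraries, all higher in females, and 0.177% in C-titled ones (0.138% higher and 0.0384% lower in females). A sex difference in rhythm was called for 0 genes in either prefix by edgeR, with 5.33% of genes at an unadjusted p under 0.05 in PV-titled libraries and 1.31% in C-titled ones, while DESeq2 called 1 gene in PV-titled libraries and 0 in C-titled ones.

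The NR4A genes varied together more closely in PV-titled libraries than in C-titled ones by description. Across libraries of a prefix, with sex and range effects removed from log2 CPM, Pearson's r between Nr4a1 and Nr4a2 was 0.44 in PV-titled (n = 55) and 0.06 in C-titled libraries (n = 58). Between Nr4a1 and Nr4a3 it was 0.46 in PV-titled libraries and 0.25 in C-titled ones. Between Nr4a2 and Nr4a3 it was 0.41 in PV-titled libraries and 0.35 in C-titled ones. Spearman's rho was 0.44, 0.47 and 0.39 for these pairs in PV-titled libraries and 0.09, 0.26 and 0.33 in C-titled ones. The points share library, depth and time of day, and the difference between the prefixes was not tested.

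The 5 genes most like each member by this correlation were named as a description. For Nr4a1, Arc, an activity-induced regulator of synaptic strength, stood first in both prefixes, with r = 0.83 in PV-titled libraries and 0.87 in C-titled ones. In PV-titled libraries the activity-induced factor Egr1 (0.77), Tmem121b (0.75), the spine-associated actin regulator Synpo (0.70) and Egr4 (0.69) followed. In C-titled libraries the AP-1 subunit Junb (0.82), the growth factor signal inhibitor Spry4 (0.81), the AP-1 subunit Fos (0.80) and the pseudokinase Trib1 (0.80) followed. For Nr4a2 the closest genes had lower r: Trak1 (0.60), which links mitochondria to motor proteins, Cygb (0.59), Nfatc2 (0.55), a calcineurin-regulated factor, Crat (0.55) and Kcnip2 (0.54) in PV-titled libraries, and Acot5 (0.63), Chordc1 (0.56), the AP-1 subunit Fosl2 (0.54), the RNA methyltransferase Mettl3 (0.53) and Cys1 (0.53) in C-titled libraries. For Nr4a3 they were Rhobtb2 (0.63), Synpo (0.63), Cygb (0.62), Trak1 (0.61) and Phyhip (0.60) in PV-titled libraries, and Ago2 (0.83), the catalytic part of the microRNA complex, Mon2 (0.82), the AP-1 subunit Fosb (0.81), Dynll1 (0.80) and Cobl (0.79) in C-titled libraries. Synpo, Cygb and Trak1 thus occur beside more than 1 NR4A gene in PV-titled libraries, and no gene occurs beside more than 1 in C-titled libraries. Among the neighbours of Nr4a1 in C-titled libraries the other 2 members were far down, at rank 4904 for Nr4a2 and 2033 for Nr4a3 of 12978 genes.

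Genes of the signal that induces the family were compared next. Of 13 such genes, 4 were higher and 8 lower in PV-titled libraries than in C-titled ones, with a median difference of -0.25 in log2 beside 0.0084 for all genes. The CREB coactivators Crtc2 (1.23) and Crtc3 (1.4997) and the acetyltransferase Ep300 (1.22) were higher, and Camk4 (-0.88), a calcium-dependent kinase that acts on CREB, was lower (edgeR adjusted p at most 3.23e-30). The remaining CRTC coactivator, Crtc1 (-0.48), was lower, so the CRTC genes did not all go one way. The 12 called of 13 stand beside 87.5% of all genes. Rhythm was called in 1 of 13 in PV-titled libraries, the serum response partner Elk1 (amplitude 0.31, peak ZT20.6), beside 3.06% of all genes there. It was called in 4 of 13 in C-titled libraries, Elk1 (0.29, ZT20.1), Creb1 itself (0.13, ZT23.0), the coactivator Crtc1 (0.25, ZT18.0) and the acetyltransferase Crebbp (0.32, ZT4.5), and in 2 of 13 there without the libraries that stand apart, beside 26.8% of all genes in C-titled libraries. The median amplitude of these genes, 0.11 in PV-titled libraries and 0.12 in C-titled ones, equals that of all genes to 2 decimals.

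Other activity-induced transcription factors were mostly lower in PV-titled libraries as well. Of 11 tested, 7 were lower and 2 higher, with a median of -0.47 in log2, beside 43.1% of all genes lower and 44.3% higher. The Egr family led, with Egr1 at -1.27, Egr3 at -1.30 and Egr4 at -1.05, and the AP-1 subunit Jun was at -0.87 (adjusted p at most 7.38e-12). The 2 that were higher, named after their values were seen, are Ier2 (0.62) and Npas4 (0.92), a factor induced by calcium influx in neurons. Fos (-0.21) and Junb (-0.08) did not pass. Rhythm was called in 3 of 11 in PV-titled libraries, Egr1 (amplitude 0.56, ZT19.8), Egr2 (0.99, ZT19.8) and Junb (0.38, ZT17.0), and in 5 of 11 without the libraries that stand apart. In C-titled libraries it was called in 9 of 11, among them Jun (0.59, ZT19.1), Fosl2 (0.47, ZT1.4), Egr1 (0.52, ZT19.2) and Fos (0.66, ZT18.8). Over all genes 3.06% were called in PV-titled libraries and 26.8% in C-titled ones. The median amplitude was 0.38 in PV-titled libraries and 0.47 in C-titled ones, beside 0.11 and 0.12 for all genes. No member of the list had a called difference in rhythm between the prefixes, beside 0.383% of all genes.

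All 8 NR4A partners and corepressors considered differed between the prefixes, 4 higher and 4 lower in PV-titled libraries, close to the 87.5% of all genes called, with a median of 0.032 in log2. Among the retinoid X receptors, Rxrg (-0.80) and Rxrb (-0.46) were lower and Rxra (0.35) was higher. The corepressor Ncor1 (0.81) and the deacetylase Hdac3 (0.54), which works in its complex, were higher. Rhythm was called in 0 of 8 in PV-titled libraries (edgeR, where Rxra had the lowest adjusted p, 0.0566) and in 2 of 8 in C-titled libraries, Hdac3 (amplitude 0.15, ZT9.6) and Rxrb (0.15, ZT17.1), beside 3.06% and 26.8% of all genes.

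Chaperones of the endoplasmic reticulum, reported in mouse hippocampus to depend on NR4A activity, were all lower in PV-titled libraries, 14 of 14, with a median of -1.19 in log2, beside 43.1% of all genes lower. Hsp90b1 (-1.25), Pdia6 (-1.36), Pdia3 (-1.60) and Hspa5 (-1.60), which fold proteins in that compartment, had the lowest p (adjusted p at most 2.11e-51). Rhythm was called in 7 of 14 in PV-titled libraries, beside 3.06% of all genes, and in 12 of 14 in C-titled ones, beside 26.8%. In PV-titled libraries Hspa5 (amplitude 0.40, ZT19.8), the stress-response factor Xbp1 (0.23, ZT18.9), Sdf2l1 (0.48, ZT18.3) and Manf (0.26, ZT17.7) led. In C-titled libraries Pdia4 (0.40, ZT19.4), Pdia6 (0.23, ZT20.8), Hspa5 (0.37, ZT19.8) and Dnajc3 (0.24, ZT20.2) led. All 7 called in PV-titled libraries peak between ZT12 and ZT24, as do 11 of the 12 in C-titled libraries. Their median amplitude was 0.23 in both prefixes, and none had a called difference in rhythm, beside 0.383% of all genes.

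Of the other reported NR4A targets, 5 were measured, of which 2 were higher and 2 lower in PV-titled libraries, beside 87.5% of all genes called, and 3 higher and 2 lower without the libraries that stand apart. The neuropeptide Vip (2.50) and the mitochondrial regulator Ppargc1a (0.97) were higher, and the growth factor Bdnf (-1.53) and the mitochondrial DNA factor Tfam (-0.56) were lower. Rhythm was called in 0 of 5 in PV-titled libraries by edgeR, beside 3.06% of all genes there, and the lowest adjusted p was 0.31 for Slc18a2. In C-titled libraries it was called for Bdnf alone (amplitude 0.19, ZT2.5, adjusted p = 0.00774), and for none without the libraries that stand apart, beside 26.8% of all genes.

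Nr4a2 marks claustrum and deep-layer neurons, so the other markers of those cells stand beside its values. Of 5 measured, Moxd1 (3.74), Ccn2 (1.44) and Cplx3 (0.48) were higher in PV-titled libraries, beside 44.3% of all genes. Lxn (-0.92) and Gnb4 (-0.35) were lower there, beside 43.1% of all genes. The sum of the 5 markers ran from 71.8 to 131 CPM in PV-titled libraries and from 69.5 to 137 CPM in C-titled ones, with medians of 89.4 and 98.3 CPM. The part of such cells in the Nr4a2 level was not tested.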

How the data were processed

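The deposited values are read counts per gene in 1 table. Per the submitters' processing notes they were made with FastQC and HTSeq on GRCm38, and DESeq2 was named too. For the aligner, the annotation and all versions, nothing is given in the sources used here. Per the labels, ribosomes were pulled down with an antibody against haemagglutinin, cDNA was made with SMART-seq HT and libraries with Nextera Flex, without molecular identifiers. HTSeq's row of reads in no feature (55.5 to 67.7% of PV-titled and 51.9 to 59.4% of C-titled totals) was left out. Of 114 libraries 113 were used. 1 column whose name gives a sex other than that of its title was mapped to no sample. No library was a copy of another (lowest chi-square per gene 32.5 in 100 PV-titled and 14.0 in 112 C-titled pairs within groups).

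Counts were fitted in R 4.3.3 with edgeR 4.0.16 (TMM, filterByExpr, robust quasi-likelihood F tests), with Benjamini-Hochberg adjustment over all genes tested and a threshold of 0.05. The prefix term stood beside 6 times as factor levels, sex and library-number range. Rhythm was tested by cosine and sine of 24 h with sex and range, and its difference by products with prefix or sex. Peaks and amplitudes are from the same fits, with errors from their covariance. The steps were checked on simulated data. Libraries stand apart where their median correlation lies over 6 median absolute deviations under that of their prefix, a rule chosen after seeing the data. Alternatives were DESeq2 1.42.0, other scalings, no filter, terms or ranges left out, each sex alone, and each title number left out. Exon lengths and positions are from GENCODE vM21, and promoters from RefSeq. Symbols were found for 13051 of 13101 genes. Of the companion lists the text names up to 4 called members with the lowest p in each comparison, and the 5 genes most like each member. 1 gene of the partner list is not reported here. The members and lists were chosen with earlier results of these data known.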

Additional observations from a re-analysis of the deposited data

Results flagged for a closer look

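Within the 72 sets of 4 or 5 libraries formed by gene, prefix, time and sex, 5 had 1 library far from the rest by Dixon's test, all of them PV-titled. Chance gives such a library in about 1 in 20 sets. Nr4a1 at ZT6 in PV-titled females had 1 library at 122.6 CPM, with the other 4 between 41.5 and 63.8 CPM. Nr4a2 had 3 such sets, all in PV-titled males. At ZT2 its lowest library had 2.481 CPM, with the others between 7.54 and 8.15 CPM. At ZT18 its highest library had 20.66 CPM, with the others between 8.23 and 9.99 CPM. At ZT22 its highest library had 25.38 CPM, with the others between 4.80 and 8.37 CPM, and that library is 1 of the 3 PV-titled ones that stand apart. Nr4a3 at ZT14 in PV-titled females had 1 library at 15.51 CPM, with the other 4 between 7.36 and 9.52 CPM.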

How the results depend on the processing

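Of 496 values recomputed under alternatives, 425 were rated the same as in the main fit. For an NR4A gene this means the same direction and the same side of the threshold. For its rhythm, direction means a peak less than 6 h away. Whole-table counts of calls are among the 496, and for them it means a count within a set factor of the main one. The cause of the changes below was not tested, except that fits of 1 range, 1 sex or without a title number hold fewer libraries. The lower Nr4a1 and Nr4a3 levels in PV-titled libraries kept their calls under all 17 alternatives, from -0.69 to -0.34 and from -1.04 to -0.71 in log2. The Nr4a2 difference passed without TMM (0.28), was -0.043 in females alone, and ran from -0.011 to 0.12 with each title number left out.

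The share of genes with a called rhythm in PV-titled libraries, 3.06%, became 0.153% in the first range, 0.330% in the second, 1.03% in females, 0.0690% in males and 1.19% with time as a factor, and from 0.736% to 2.54% with each title number left out. The Nr4a1 amplitude there lost its call in the first range (0.58), the second range (0.48) and males (0.48), and ran from 0.46 to 0.60 with title numbers left out. With DESeq2, Nr4a2 (0.55) and Nr4a3 (0.49) passed.

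In C-titled libraries the share of 26.8% became 2.92% in the first range, 10.3% in the second, 2.05% in females, 3.60% in males and 9.85% with time as a factor, and ran from 15.1% to 23.7% with title numbers left out. The Nr4a1 amplitude lost its call in the first range (0.56), the second range (0.43), females (0.53) and males (0.42), and ran from 0.35 to 0.56 with title numbers left out. Nr4a2 lost its call in the first range (0.23) and females (0.24), and ran from 0.30 to 0.41.

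A rhythm difference was called in 0.383% of genes, which became 0.222% without TMM, 1.20% with DESeq2, 1.56% without the range term, 0% (edgeR, with 10.7% at an unadjusted p under 0.05) in the first and 0.0153% in the second range, 0.0307% in females, 0.00766% in males, 0.123% with time as a factor and 0.130% without the libraries that stand apart, and ran from 0.0383% to 0.214% with title numbers left out. No NR4A gene was called in any. The time of the largest Nr4a2 difference moved by over 6 h in the second range (amplitude of the difference 0.064) and in males (0.20).

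The sex calls in PV-titled libraries, 0.0307% of genes, became 0.0153% in the first range, and Nr4a2 was 0.14 in the second range, with -0.29 to 0.074 over title numbers. Those in C-titled libraries, 0.177%, became 0.299% with DESeq2, 0.0537% and 0.0307% in the first and second range, 0.606% without the libraries that stand apart and from 0.0614% to 0.161% over title numbers. There Nr4a2 was 0.016 without the range term, 0.021 in the first range and 0.0058 without the libraries that stand apart, with -0.040 to 0.053 over title numbers. Nr4a3 was 0.046 in the first range and 0.021 without those libraries, with -0.14 to 0.052 over title numbers. The sex difference of the Nr4a1 rhythm in C-titled libraries moved its time by over 6 h in the first range (0.33), and DESeq2 called 0.00766% of genes for it in PV-titled libraries.

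Libraries of 1 title number deviated together in part, but not in every pair, so the numbers were not taken as pairs. Between same-number libraries the median correlation of deviations was 0.09 in PV-titled libraries and 0.23 in C-titled ones (lowest -0.35 and -0.36), against -0.03 and -0.06 between other numbers, and between the prefixes it was 0.07, 0.39, 0.33, 0.58 and 0.38 for numbers 1 to 5. As a hint from the data and not the design, 31 of 55 PV-titled and 36 of 58 C-titled libraries correlated best with their own number. With the number as a replicate block, calls covered 3.33% of genes for rhythm in PV-titled libraries, 25.4% in C-titled ones and 0.138% for its difference, Nr4a2 passed in PV-titled libraries (0.57, edgeR adjusted p = 0.0483), and the sex difference of Nr4a2 in C-titled libraries was 0.0015. Depth limits Nr4a2 and Nr4a3 most, with as few as 30 and 23 counts in a library.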

Other observations

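Other orphan and lipid-sensing nuclear receptors of the cortex were set beside the NR4A genes. Of 13 tested, 8 were higher and 3 lower in PV-titled libraries than in C-titled ones, with a median of 0.27 in log2, beside 87.5% of all genes called, and 9 higher and 3 lower without the libraries that stand apart. Nr2f2 (2.55), which marks interneurons of the caudal ganglionic eminence, the oestrogen-related receptor Esrrg (1.97) and the mineralocorticoid receptor Nr3c2 (0.93) were higher, and the clock repressor Nr1d1 (-0.81) was lower. Rhythm was called in 2 of 13 in PV-titled libraries, the clock repressors Nr1d1 (amplitude 0.28, ZT12.8) and Nr1d2 (0.21, ZT13.1). It was called in 4 of 13 in C-titled libraries, Nr1d1 (0.42, ZT12.4), Nr1d2 (0.28, ZT16.0), Nr2f1 (0.36, ZT6.0) and Rorb (0.27, ZT20.9), and in 3 of 13 there without the libraries that stand apart, beside 3.06% of all genes in PV-titled libraries and 26.8% in C-titled ones. The median amplitude of the list was 0.14 in PV-titled libraries and 0.13 in C-titled ones, beside amplitudes of 0.49 to 0.55 and of 0.31 to 0.46 for the NR4A genes.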
